A study of Homo sapiens with 6 samples.

Results

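The 10 genes described here are *IFI16*, *CASQ2*, *ZBED2*, *GABRE*, *ALPK2*, *FAM110C*, *LRRC4C*, *CCDC152*, *FLRT3* and *ADGRV1*, out of 20347 gene symbols measured. They were chosen by their measured values in these libraries, for a range above 4 on the log2 scale among 3 *SAMD1* KO clones and a flat level among 3 controls. The cells were PaTu8988t, an established human pancreatic ductal adenocarcinoma (PDAC) line. The Control group was 3 replicates of cells that had received a control guide RNA. The SAMD1 KO group was 3 independently derived CRISPR/Cas9 clones selected with puromycin, 1 library each, here called clones 1 to 3 after their replicate numbers. No drug, time course or other group was part of the comparison. The methods describe selection for single clones but do not say whether the Control replicates came from 1 clone, several or a pool, nor that they were separate cultures, so loss of SAMD1 and differences between founder cells cannot be told apart in any difference between the groups, and the spread among controls may be technical.

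SAMD1 is a chromatin protein that binds unmethylated CpG islands, stretches of DNA rich in the dinucleotide CG that overlap most promoters, and is known as a repressor there. A clone grown from 1 cell carries forward the expression state, the DNA methylation and the chromosome changes of its founder, so a gene that is on in some cells of a line and off in others can be fully on in one clone and silent in the next. A polyclonal or repeatedly sampled culture gives the mean over such cells. In RNA from whole cultures, fewer cells that express a gene and less RNA per cell cannot be told apart.

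*SAMD1* itself, the gene that the guides targeted, had 2231, 2383 and 2299 normalized counts, that is read counts divided by a size factor per library, in the controls and 874, 1082 and 825 in clones 1 to 3 (log2 fold change −1.32, adjusted p = 0.000724, limma). Its RNA was lower in every clone but present, and a frameshift need not remove RNA. Libraries held 35589477 to 45172216 recovered reads, the 2 deepest being those of clones 2 and 3. The sum of 6 epithelial markers was 62727 to 65936 normalized counts in the controls and 67655 to 108596 in the clones, nearly all of it from the keratin genes *KRT8* and *KRT18*, and *KRT7* had 26.4 to 34.3 in the controls and 78.1 to 90.7 in the clones. *EPCAM* had at least 422 in every library, *KRT19* was listed at 0 throughout and *CDH1* did not exceed 45.8. The part of these marker shifts in the values below was not tested. Summed markers of other cell types stayed at or below 8.81 normalized counts for leukocytes, 18.6 for neural cells, the fibroblast sum was at least 52.8 in the controls and at most 44.9 in the clones, and the endothelial sum was 77.8 to 84.8 in the controls and 33.6 to 83.6 in the clones.

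All 10 genes were read at a clear level in every control library, with at least 16 reads each, and all 10 passed the filter of a mean normalized count of at least 10 that left 12773 tested genes. Among the 30 values of 10 genes in 3 clones, 11 lay more than 4-fold below the control mean, 3 more than 4-fold above it and 16 within 4-fold. In 9 of the 30 the clone library had at most 7 reads of the gene, and in 2 it had none. These values are those that chose the genes, so they are given as a description with no test.

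The genes differ in the sequence before their RefSeq start, which is shown for 4 of them because it spans the range from no CpG to a dense CpG island. Each line gives the 250 bases upstream of the RefSeq start, 5′ to 3′ on the strand of the gene, with each CG in capitals. The positions, on GRCh38.p14, are chr1:159009657-159009906 (plus strand) for the second of the RefSeq starts of *IFI16*, chr3:111595347-111595596 (minus) for *ZBED2*, chrX:151974677-151974926 (minus) for *GABRE* and chr2:46506-46755 (minus) for *FAM110C*.
IFI16: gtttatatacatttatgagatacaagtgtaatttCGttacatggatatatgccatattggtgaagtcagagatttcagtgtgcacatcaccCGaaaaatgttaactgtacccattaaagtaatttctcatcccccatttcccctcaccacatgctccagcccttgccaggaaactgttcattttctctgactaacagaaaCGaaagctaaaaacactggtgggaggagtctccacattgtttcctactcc
ZBED2: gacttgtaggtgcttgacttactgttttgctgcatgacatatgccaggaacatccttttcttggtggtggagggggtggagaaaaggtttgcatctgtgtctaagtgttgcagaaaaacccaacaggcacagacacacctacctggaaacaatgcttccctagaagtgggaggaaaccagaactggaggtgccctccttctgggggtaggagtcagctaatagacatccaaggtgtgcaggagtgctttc
GABRE: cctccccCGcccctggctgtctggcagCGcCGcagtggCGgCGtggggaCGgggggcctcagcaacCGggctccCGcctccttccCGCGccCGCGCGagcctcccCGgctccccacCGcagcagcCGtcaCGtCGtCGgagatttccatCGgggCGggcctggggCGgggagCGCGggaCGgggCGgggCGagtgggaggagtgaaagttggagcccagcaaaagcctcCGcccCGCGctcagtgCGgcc
FAM110C: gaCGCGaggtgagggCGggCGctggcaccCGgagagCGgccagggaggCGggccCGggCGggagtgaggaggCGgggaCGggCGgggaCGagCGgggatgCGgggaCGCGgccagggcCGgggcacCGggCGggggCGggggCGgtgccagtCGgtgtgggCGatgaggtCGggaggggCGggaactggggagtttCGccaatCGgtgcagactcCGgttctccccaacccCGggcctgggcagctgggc

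The motif searched was CG, which reads the same on both strands. The *GABRE* window held 31 CpGs and the *FAM110C* window 30, and both passed the limits used here for a CpG island, an observed over expected CpG ratio above 0.6 and a GC content above 50%. The *ADGRV1* window held 15 CpGs with a ratio of 0.535, those of *CASQ2* and *CCDC152* held 8 each, that of *ALPK2* 7 and that of *FLRT3* 3. The *ZBED2* window and the other *IFI16* window, chr1:159008741-159008990, held 0, and the *IFI16* window printed above held 3. Thus 2 of the 9 genes with an entry had a window past both limits, against 76.0% of the 10260 tested genes with an entry and 44.8% of all 35116 windows in the RefSeq table. *LRRC4C* had no entry. The median tested gene had 21 CpGs and the lower quartile was 14, so 7 of the 9 stood at 15 or fewer. Of the 13 other genes that meet the same range rule, 10 had an entry and 4 of these passed both limits. The windows of *IFI16*, *ADGRV1* and *FAM110C* lie wholly inside the gene extents given below, which are from GENCODE. For these genes the RefSeq start used here thus differs from the GENCODE start. A count of CpGs describes these letters, and which start the cells used was not measured.

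**Figure D1:**
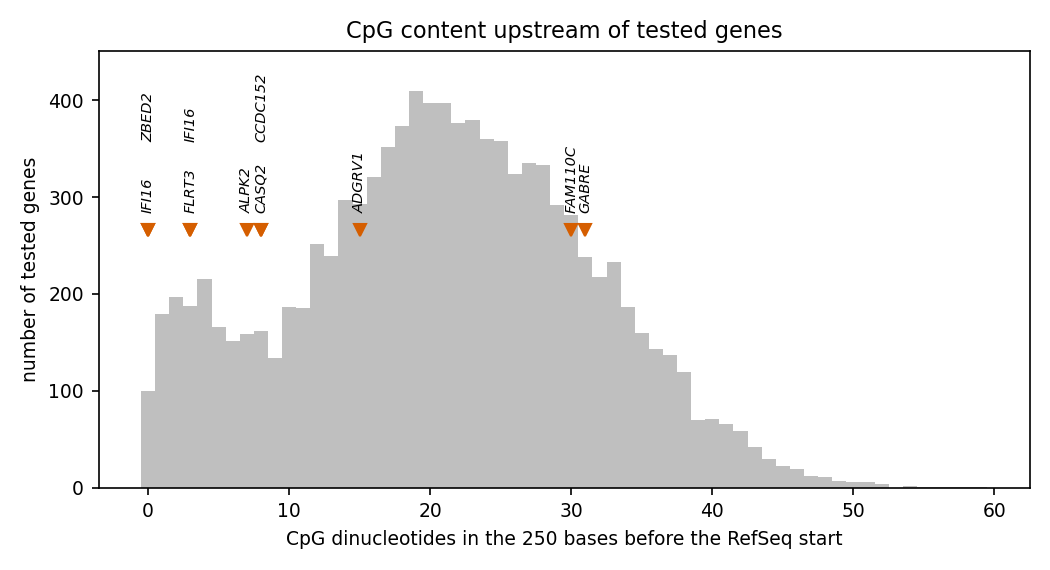
Number of tested genes (y axis) by the number of CpG dinucleotides in the 250 bases before the RefSeq start (x axis), with triangles at the values of 9 of the 10 genes (*IFI16* has 2 starts). *GABRE* and *FAM110C* sit at 31 and 30 CpGs, right of the median of 21, and the other 7 sit at 15 or below.

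*IFI16* is a member of the PYHIN family and a sensor of DNA in the nucleus and cytosol that feeds the interferon response. It lies at chr1:158999968-159055155 on the plus strand, with 12 exons in its canonical transcript. The control libraries held 1414, 1432 and 1416 normalized counts, a mean of 1421 ± 10.2 (SD, n = 3). The clones held 12.9, 0 and 2284. Clones 1 and 2 were thus nearly or fully without *IFI16* reads while clone 3 stood above every control library. The 13 reads of clone 1 put it 110.5-fold below the control mean, with a 95% exact Poisson interval from 64.6 to 208 for the reads of the clone alone. Clone 2 had 0 reads, and against a floor of 3 reads in that library it was at least 548-fold lower. Clone 3 was 1.61-fold over the control mean. On the log2(normalized count + 1) scale, the difference of *IFI16* was the lowest of all 12773 tested genes in clone 2 and ranked 2 from the lowest in clone 1.

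*ZBED2*, a zinc finger transcription factor derived from a transposase, lies at chr3:111592900-111595346 on the minus strand. Its controls held 38.9, 42.1 and 36.7 normalized counts, and the clones 5.93, 552 and 69.3. Clone 1 stood below, clones 2 and 3 above all controls. The 6 reads of clone 1 were 6.61-fold below the control mean (95% interval 3.04 to 18.0), and clone 2 was 14.1-fold above it, rank 6 from the highest of all tested genes in that clone.

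*CASQ2* encodes calsequestrin 2, which stores calcium in the sarcoplasmic reticulum of heart muscle. The gene spans chr1:115700021-115768884 on the minus strand, with 11 exons. Control values were 226, 231 and 246 normalized counts, a mean of 235 ± 10.4 (SD, n = 3), and the clones had 1243, 824 and 0. Here clones 1 and 2 were the high ones and clone 3 was silent, the reverse of *IFI16*, also on chromosome 1. Clone 1 was 5.30-fold and clone 2 3.51-fold over the control mean. Clone 3 had 0 reads, at least 86.9-fold lower, and on the log2 scale this was the lowest difference of any tested gene in that clone. The summed level of 5 striated muscle markers (*MYH6*, *MYH7*, *TNNT2*, *ACTN2* and *MB*) was 12.7 to 32.1 normalized counts in the controls and 9.89 to 48.4 in the clones, with *MYH7* at 0 in all 6 libraries.

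*GABRE*, the epsilon subunit of the GABA-A receptor, a chloride channel gated by the transmitter GABA, lies at chrX:151953124-151974680 on the minus strand. The controls held 422, 339 and 367 normalized counts, and the clones 437, 6.05 and 151. Clone 1 was just above the highest control, clone 3 below all of them, and clone 2 nearly silent. The 7 reads of clone 2 were 62.1-fold below the control mean (95% interval 30.2 to 154.5), and clone 3 was 2.49-fold below it.

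*ALPK2* is an alpha-kinase, one of a small family of kinases whose fold differs from that of the common protein kinases. It lies at chr18:58481247-58629091 on the minus strand. Control values were 105, 98.8 and 105 normalized counts. Clone values were 6.92, 226 and 4.50, so that clones 1 and 3 were low and clone 2 stood above every control. The 7 reads of clone 1 were 14.9-fold (7.23 to 37.1) and the 5 reads of clone 3 were 22.9-fold (9.83 to 70.6) below the control mean, and clone 2 was 2.19-fold over it. With *IFI16*, it was 1 of the 2 genes that were more than 4-fold lower in 2 clones, and no gene of the 10 was so in all 3.

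*FLRT3*, *LRRC4C* and *ADGRV1* encode cell surface proteins. *FLRT3* is a leucine-rich repeat protein that binds UNC5 receptors and latrophilins, and lies at chr20:14322985-14337614 on the minus strand. Its controls were low, at 18.3, 29.4 and 18.3 normalized counts, and the clones held 12.9, 306 and 40.5. Clone 2 stood 13.9-fold over the control mean and clone 3 1.84-fold over it, and the 13 reads of clone 1 were 1.71-fold below it (1.00 to 3.21). It was the only one of the 10 with no clone more than 4-fold lower.

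*LRRC4C*, also called netrin-G ligand 1, is a synaptic adhesion protein that binds netrin-G1. The gene spans chr11:40114203-41459773 on the minus strand. Control values were 41.2, 64.6 and 67.6 normalized counts and clone values 3.96, 170.2 and 56.7. Clone 1 was low, clone 2 high and clone 3 inside the control range, which made *LRRC4C* the only one of the 10 with a clone inside it. The 4 reads of clone 1 were 14.6-fold below the control mean (5.71 to 53.6), and clone 2 was 2.95-fold over it. Its control range of 0.70 on the log2 scale was the widest of the 10.

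*ADGRV1* is a very large adhesion receptor of the stereocilia of hair cells, known from Usher syndrome, with 90 exons over chr5:90529344-91164437 on the plus strand. The controls held 103, 102 and 112 normalized counts, and the clones 85.0, 15.6 and 298. Clone 2 was low, clone 3 high and clone 1 slightly below the controls. The 18 reads of clone 2 were 6.79-fold below the control mean (4.30 to 11.5), and clone 3 was 2.82-fold over it.

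*FAM110C*, which encodes a protein associated with microtubules and the centrosome, lies near the end of chromosome 2, at chr2:38814-46870 on the minus strand. Control values were 470.1, 385 and 422 normalized counts, and clone values 6.92, 111 and 293. All 3 clones were below every control, by unequal amounts. The 7 reads of clone 1 were 61.5-fold below the control mean (29.8 to 152.9), clone 2 was 3.85-fold and clone 3 1.45-fold below it.

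*CCDC152*, a gene for a coiled-coil protein, lies at chr5:42756818-42802439 on the plus strand. Its controls held 106, 96.9 and 111 normalized counts, and the clones 61.3, 0.864 and 44.1. As for *FAM110C*, every clone was below every control. The single read of clone 2 gave a ratio of 121.3 to the control mean, with an interval from 21.8 to 4791. Clones 1 and 3 were 1.71-fold and 2.38-fold below the control mean.

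**Figure D2:**
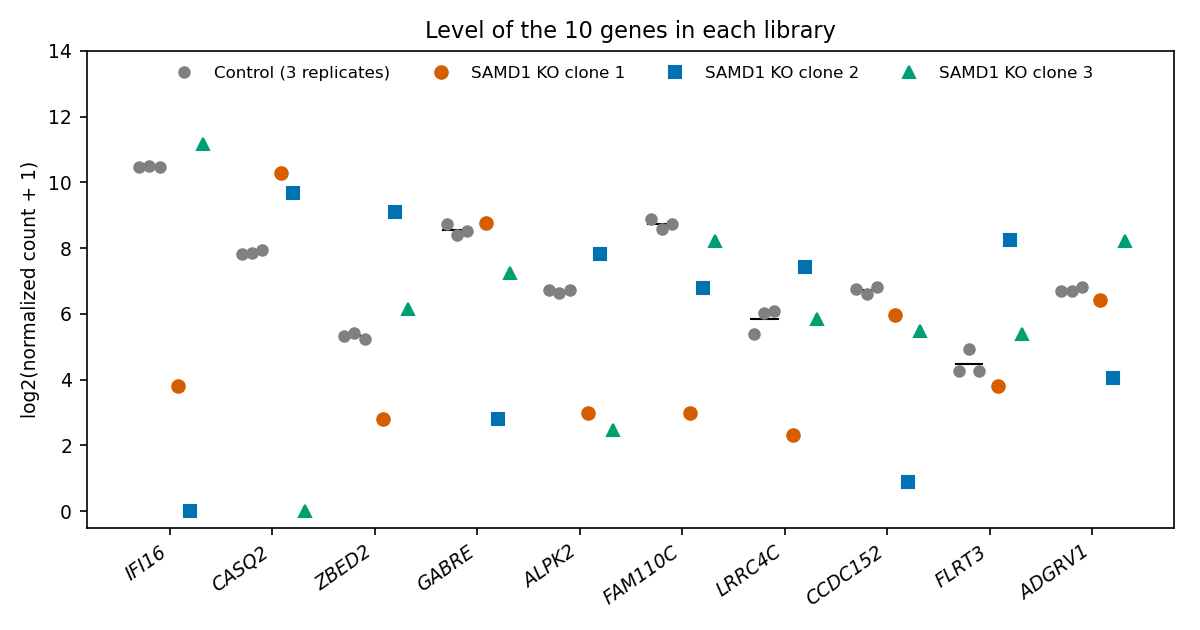
Level of each of the 10 genes on the log2(normalized count + 1) scale (y axis) in 3 control libraries (grey, with their mean as a line) and in *SAMD1* KO clone 1 (circle), clone 2 (square) and clone 3 (triangle). The control points lie close together for each gene while the clones spread by 4.17 (*ADGRV1*) to 11.16 (*IFI16*), and *IFI16* in clone 2 and *CASQ2* in clone 3 sit at 0.

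Per kilobase of the canonical transcript, the control level was highest for *IFI16*, at 493 ± 3.54 normalized counts (SD, n = 3). *GABRE* followed at 119 ± 13.5, *FAM110C* at 110 ± 11.1 and *CASQ2* at 90.5 ± 4.01. *GABRE* and *FAM110C* differed by less than their spread. The lower levels were 30.0 ± 2.08 for *CCDC152*, 20.6 ± 5.16 for *LRRC4C*, 17.7 ± 1.23 for *ZBED2*, 13.9 ± 0.504 for *ALPK2*, 5.40 ± 0.294 for *ADGRV1* and 4.42 ± 1.28 for *FLRT3*. *LRRC4C* and *ZBED2*, and *ADGRV1* and *FLRT3*, were again closer than their spread. *IFI16* and *CASQ2*, the genes with 0 reads in a clone, were thus among the 4 at the highest control level per length.

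No clone was the low one throughout. Clone 1 was the lowest clone for 4 genes (*ZBED2*, *FAM110C*, *LRRC4C* and *FLRT3*), clone 2 for 4 (*IFI16*, *GABRE*, *CCDC152* and *ADGRV1*) and clone 3 for 2 (*CASQ2* and *ALPK2*). The highest clone was clone 1 for 3 genes, clone 2 for 4 and clone 3 for 3. Against the control mean, 8 of the 10 genes were lower in clone 1, 5 in clone 2 and 5 in clone 3. For 8 genes, clones lay on both sides of the controls. *CASQ2* and *ZBED2* were more than 4-fold lower in 1 clone and more than 4-fold higher in another.

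In clone 1, 5 of the 10 genes (*IFI16*, *ZBED2*, *ALPK2*, *FAM110C* and *LRRC4C*) were more than 4-fold lower, where 0.517% of all tested genes were, and *CASQ2* alone was more than 4-fold higher, where 0.532% were. In clone 2, 4 genes (*IFI16*, *GABRE*, *CCDC152* and *ADGRV1*) were past this fold downwards against 0.501% of all tested genes, and *ZBED2* and *FLRT3* upwards against 0.791%. In clone 3, *CASQ2* and *ALPK2* were past it downwards against 0.321%, and none of the 10 upwards against 0.587%. The choice of the genes used these same differences, so nothing is read from the excess.

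**Figure D3:**
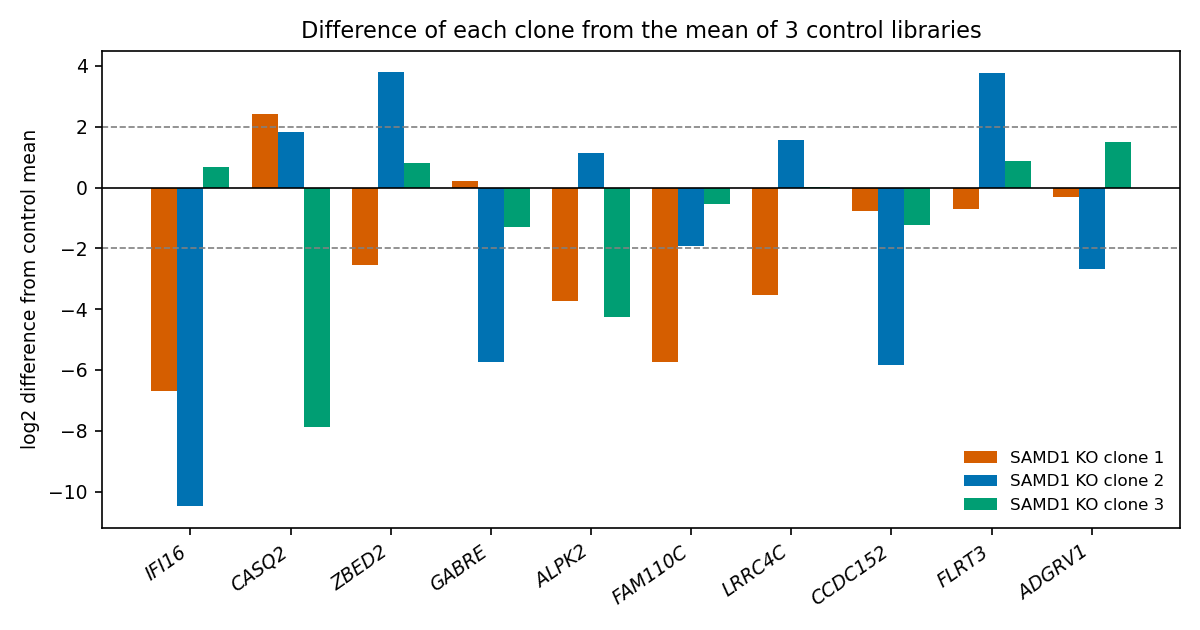
Difference of each clone from the mean of 3 control libraries on the log2(normalized count + 1) scale (y axis) for the 10 genes, 1 bar for each clone, with dashed lines at 4-fold. Bars past the lower line are spread over all 3 clones, and *CASQ2* and *ZBED2* pass the line in both directions; the depth of the bars at 0 reads (*IFI16* clone 2, *CASQ2* clone 3) depends on the added 1.

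A comparison of the group means averages over this pattern. The difference of the mean log2 values, SAMD1 KO minus Control, with its standard error in limma, was −5.49 ± 2.42 for *IFI16*, −1.22 ± 2.47 for *CASQ2*, 0.69 ± 1.36 for *ZBED2*, −2.27 ± 1.33 for *GABRE* and −2.28 ± 1.27 for *ALPK2*. It was −2.73 ± 1.16 for *FAM110C*, −0.65 ± 1.14 for *LRRC4C*, −2.60 ± 1.21 for *CCDC152*, 1.32 ± 1.00 for *FLRT3* and −0.50 ± 0.90 for *ADGRV1*. The standard errors, 0.90 to 2.47, compare with a median of 0.098 over all tested genes. For *CASQ2*, *LRRC4C* and *ADGRV1* the direction depended on the scale, since the ratio of the mean normalized counts was 2.94, 1.33 and 1.26 while the mean of the log2 values was lower in the clones. With the cut-off of the study (unadjusted p below 0.01 and a change of over 0.5 on the log2 scale), limma called 0 of the 10 higher, against 5.77% of tested genes, and 0 lower, against 2.08% (7.85% in either direction). At an unadjusted p below 0.05 limma had 1 of the 10, and edgeR and DESeq2 on the recovered reads called 0. As the genes were chosen for a wide range among the clones, these counts describe how wide spread enters the fit.

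The range that chose the genes can be set beside the same measure over all tested genes. The median range was 0.288 among the clones and 0.112 among the controls, the clone range was the larger in 82.7% of genes, and its 99th percentile was 2.17. The 10 genes ran from 4.17 (*ADGRV1*) to 11.16 (*IFI16*) among the clones and from 0.019 (*IFI16*) to 0.70 (*LRRC4C*) among the controls. A clone range above 4 with a control range below 1 was met by 23 tested genes (0.18%), the 10 and 13 others. The swapped rule, with the wide range among the controls, was met by 0 genes, the largest control range of any tested gene being 3.17. This swap was chosen with the data known and is a description.

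All 10 had a mean of at least 50 normalized counts over the 6 libraries, and of the 13 others only *SEMA5A* (range 4.29) and *ESM1* (4.17) did, named here after their values were seen. *FLRT3* and *ZBED2*, with control means of 22.0 and 39.2, reached this mean only through clone 2, where they were high. Among the widest of the others were *ZNF716* at 7.58, *SETBP1* at 7.13, *DSCAM* at 5.37 and *SAMD9L* at 4.83. These 4 had low control levels, from 5.72 normalized counts (*ZNF716*) to 47.0 (*SAMD9L*), a span that also holds the control values of *FLRT3* and *ZBED2*. Just inside the limit was *ADGRV1* at 4.17, and just outside it *LRRN1* at 3.97, *SDK2* at 3.93 and *OAS2* at 3.77.

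**Figure D4:**
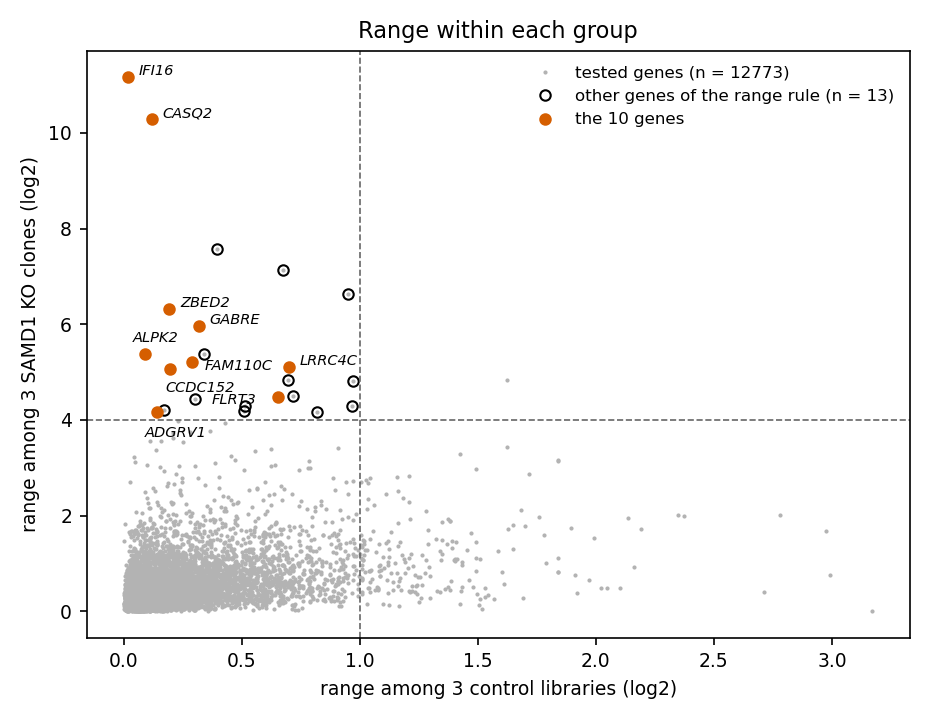
Range on the log2(normalized count + 1) scale among 3 *SAMD1* KO clones (y axis) against that among 3 control libraries (x axis) for 12773 tested genes, with dashed lines at 4 and 1. The 10 genes (filled) and 13 others (open) lie in the upper left field, *IFI16* and *CASQ2* farthest up at 11.16 and 10.28.

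The genes lie on 8 chromosomes, with *IFI16* and *CASQ2* both on chromosome 1 and *CCDC152* and *ADGRV1* both on chromosome 5. The 5 tested genes on each side of each gene, 95 neighbours in all since *FAM110C* has them on 1 side only, describe the wider stretch around it. They can lie far away, so a change limited to the gene and its close surroundings would not be seen in them. Around *LRRC4C*, for example, the nearest tested gene on the left (*IFTAP*) ended at position 36675695 and that on the right (*API5*) started at 43311963. Of the 30 neighbour medians, 27 lay within 0.5 of 0 on the log2 scale. The medians around *IFI16* were 0.03, −0.19 and −0.11 in clones 1 to 3, beside −6.68, −10.47 and 0.68 for *IFI16* itself. Those around *CASQ2* were −0.02, −0.17 and 0.04, beside 2.40, 1.81 and −7.88. Around *FAM110C* they ran from −0.10 to 0.00, beside −5.75, −1.93 and −0.53 for the gene.

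The 3 medians beyond this were those of *GABRE* in clone 1 and *CCDC152* and *ADGRV1* in clone 2. All 10 neighbours of *GABRE* were higher in clone 1, by 0.70 to 1.34 with a median of 1.07, while *GABRE* itself differed by 0.22. In clone 2, where *GABRE* was nearly silent, its neighbours had a median of 0.00. The neighbours of *CCDC152* had a median of −0.52 in clone 2, beside −5.82 for the gene, and those of *ADGRV1* a median of −0.53, beside −2.69. Around *LRRC4C*, all 10 neighbours were lower in clone 1, with differences from −0.56 to −0.06 and a median of −0.31, beside −3.54 for the gene. *CCDC152* and *ADGRV1* both lie on chromosome 5, and whether a change in copy number had a part in this was not tested. Of the 95 neighbours, 1 was past 4-fold in the same clone and direction as its gene. This was the myosin heavy chain gene *MYH15*, with −2.17 beside *ZBED2* in clone 1. Over all tested genes, 0.321% to 0.791% were past 4-fold in a given clone and direction, so nothing is read from this count.

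**Figure D5:**
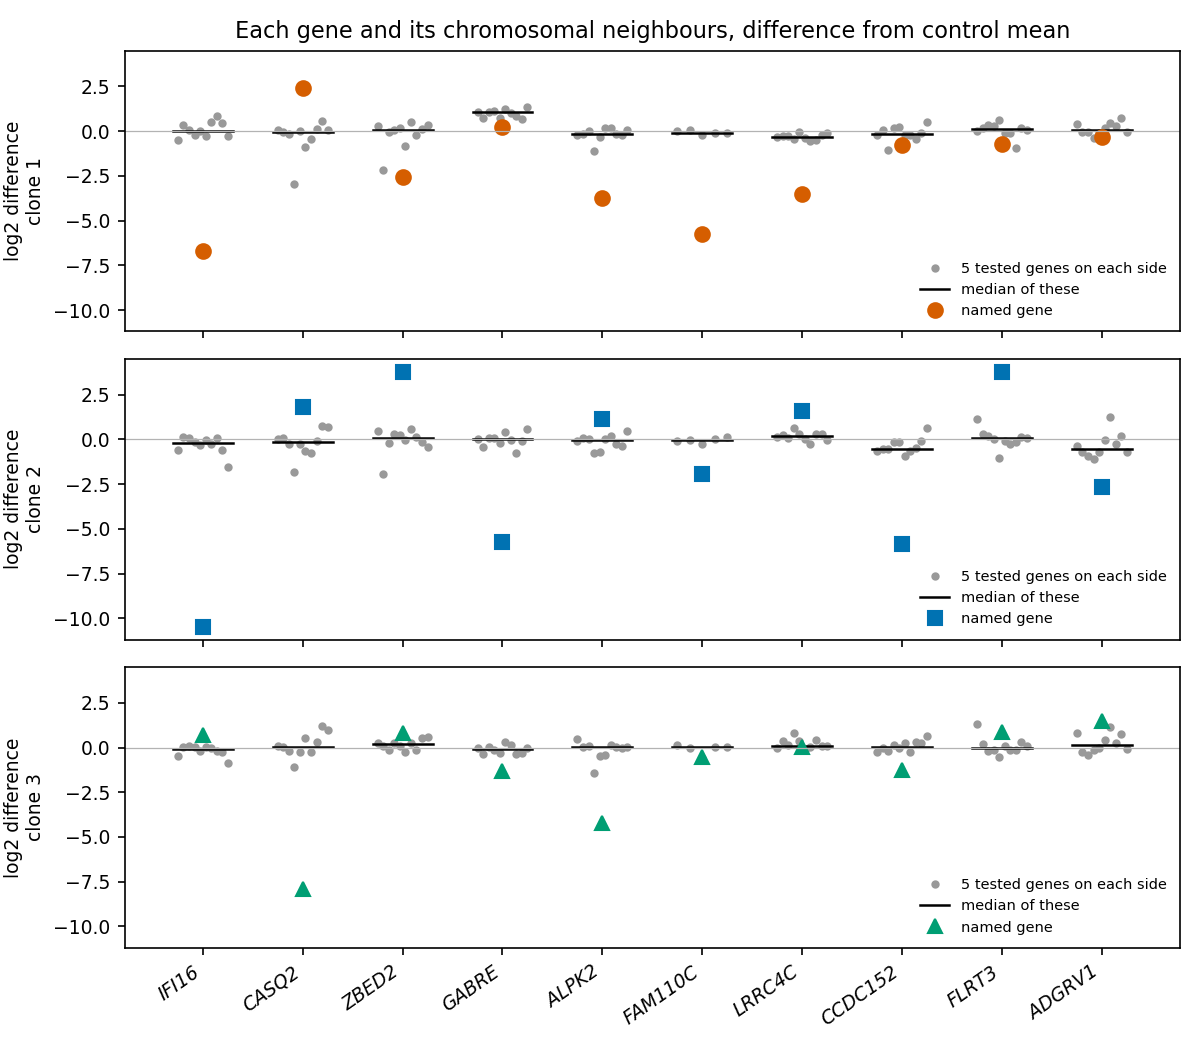
Difference from the control mean on the log2(normalized count + 1) scale (y axis) for each of the 10 genes (coloured) and the 5 tested genes on each side of it (grey, median as a line), in clones 1 to 3 from top to bottom. The neighbour medians stay within 0.5 of 0 in 27 of 30 cases, with *GABRE* in clone 1 the clearest exception at 1.07.

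Several of the genes share their position with another gene, and the strand setting of the authors' read counting is not given in the sources used here. *ZBED2* lies inside *CD96* on the opposite strand, and *CD96* held 2.94 to 9.50 normalized counts over the 6 libraries. *ZBED2* had 552 in clone 2, but in clone 1, its lowest, it had 5.93 beside 6.92 for *CD96*. *SELENOP*, which overlaps *CCDC152* on the opposite strand, had 0.864 to 8.10. In clone 2 both *SELENOP* and *CCDC152* had 0.864. The part of overlapping reads in these low values was not tested. *FLRT3* lies within *MACROD2* on the opposite strand, whose values were 132, 121 and 113 in the controls and 189, 58.7 and 82.8 in the clones. *MACROD2* was thus lowest in clone 2, where *FLRT3* was highest. *LYSMD3* overlaps the GENCODE start of *ADGRV1* on the opposite strand, and the RefSeq start used for the CpG window lies farther along *ADGRV1*. *LYSMD3* held 2300, 2402 and 2473 in the controls and 2209, 1441 and 2375 in the clones. Both genes were thus lowest in clone 2. *PYDC5* at *IFI16* and the microRNA genes *MIR224* and *MIR452* within *GABRE* were not measured here.

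Likeness of pattern was measured as the root mean square distance of the log2 differences in 3 clones, which is a description over 3 values. Among the 10, *GABRE* and *CCDC152* were closest at 0.573, both nearly silent in clone 2. *ZBED2* and *FLRT3* followed at 1.06, both high in clone 2, and *ZBED2* and *LRRC4C* at 1.48. The farthest pair was *IFI16* and *CASQ2* at 10.11.

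Of the other tested genes, the nearest to *ADGRV1* were *ILDR2* (0.712) and *TSLP* (0.769), and to *FLRT3* they were *SUSD2* (0.847) and *DNAH12* (1.07). *LRRC4C* was nearest to *OAS2* (1.04) and *TYRP1* (1.12), *ZBED2* to *SETBP1* (1.09) and *SUSD2* (1.47). *ESM1*, with 82.4, 48.9 and 87.1 normalized counts in the controls and 30.7, 2.59 and 63.9 in the clones, was the nearest to both *CCDC152* (1.10) and *GABRE* (1.33). The next nearest was *SAMD9L* (1.24) for *CCDC152* and *TGFBI* (1.35) for *GABRE*. *FAM110C* was nearest to *JPH1* (1.29) and *FGD2* (1.33), and *ALPK2* to *MYH2* (1.48) and *LRRN1* (1.72). The genes named by this measure for the widest members were farther away, with *DSCAM* at 3.86 for *IFI16*, and *FNDC10* at 3.22 and *ZNF558* at 3.26 for *CASQ2*.

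Lists of families, partners and pathways of the 10 were read, with lists of selenoprotein genes and of DNA methylation and silencing factors. In all these lists limma called 3 genes higher and 8 lower out of 104 tested. The shares over all tested genes, beside which this and the counts of each list stand, were 5.77% higher and 2.08% lower, and the median log2 fold change of all tested genes was −0.01 against −0.07 over the lists. For the counts at an unadjusted p below 0.05 no such share is given here, and nothing is read from their size. No relative of *IFI16* in the PYHIN family (*AIM2*, *MNDA* and *PYHIN1*) reached the filter. Of 6 tested genes of cytosolic DNA sensing, limma called 0 in either direction, with 1 at an unadjusted p below 0.05, and edgeR and DESeq2 called 0. These include *CGAS*, the DNA sensor that makes cyclic GMP-AMP, with a log2 fold change of −0.18 ± 0.10 (SE, adjusted p = 0.261, limma), the adaptor *STING1* (−0.73 ± 0.49, adjusted p = 0.361) and the kinase *TBK1* (−0.19 ± 0.05, adjusted p = 0.0652).

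Among 22 tested interferon-stimulated genes, limma and edgeR called 0 higher and 2 lower and DESeq2 0 and 1 (all tested genes 5.77% and 2.08% in limma), the list having medians of −0.25, −0.12 and 0.05 in clones 1 to 3 beside −6.68, −10.47 and 0.68 for *IFI16*. Single genes of the list varied more by clone than these medians. *OAS2*, named above as just outside the range rule, belongs to it, with −3.41, 0.36 and −1.32. *IFIT2*, an interferon-induced RNA-binding protein, was lower in every clone, with 487, 417 and 470 normalized counts in the controls and 132, 79.5 and 116 in the clones (limma adjusted p = 0.00123). *GBP1*, a guanylate-binding protein, fell from 14.7 to 20.6 normalized counts to 1.73 to 8.10 (adjusted p = 0.0612), and when each library was left out in turn its call held only without clone 3 (unadjusted p = 0.00335, otherwise 0.0142 to 0.0374) and was not made by DESeq2. *OAS3* had a log2 fold change of −0.47 (adjusted p = 0.00467), short of the fold cut-off. Both called genes lay below the controls in all 3 clones, including clone 3, where *IFI16* was high.

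Of 13 tested genes of the calcium store, to which *CASQ2* belongs, limma called 1 higher and 2 lower, against 5.77% and 2.08% of all tested genes, with a list median of −0.16. edgeR called 2 higher and 2 lower and DESeq2 2 higher and 1 lower, both adding *JPH3* (named after its values were seen) to the higher ones and DESeq2 leaving out *RYR3*. *ITPR1*, a calcium release channel of the endoplasmic reticulum, rose by 0.58 ± 0.09 (SE, limma adjusted p = 0.0067). *JPH1*, a junctophilin that ties the reticulum to the surface membrane, fell by 2.45 ± 0.52 (adjusted p = 0.0242), with 385, 357 and 375 normalized counts in the controls and 25.7, 99.4 and 119 in the clones. The ryanodine receptor gene *RYR3* fell by 0.84 ± 0.22 (adjusted p = 0.0458), a call kept only without clone 1 or without clone 3 (unadjusted p = 0.00469 and 0.00845) and missed without clone 2 or any 1 control, at 0.0123 to 0.0247. None of these was silent in clone 3, where *CASQ2* had 0 reads.

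The partners of the surface proteins gave most of the other calls. Of 6 tested FLRT genes and their receptors, limma and edgeR called 2 higher and 1 lower, against 5.77% and 2.08% of all tested genes, with a list median of 0.35, and DESeq2 called 2 and 0. *ADGRL2*, a latrophilin, rose from 736, 747 and 767 normalized counts to 2189, 2698 and 2715 (log2 fold change 1.75 ± 0.09, SE, adjusted p = 0.000191), and the netrin receptor gene *UNC5B* rose by 1.35 ± 0.22 (adjusted p = 0.00923). *FLRT1* fell by 0.92 ± 0.24 (adjusted p = 0.0462), a call that held only without clone 2 when each library was left out in turn (unadjusted p = 0.00507, otherwise 0.0109 to 0.0295) and that DESeq2 did not make. These 3 moved the same way in all 3 clones, unlike *FLRT3*, which was below the control mean in clone 1 and above it in the other two. Of 4 tested genes of the LRRC4 family and its ligands, limma, edgeR and DESeq2 called 0 higher and 1 lower, the synaptic scaffold gene *DLG4*, which fell by 0.67 ± 0.10 (adjusted p = 0.00586). *NTNG2*, a netrin-G, had 0.93 ± 0.30 (adjusted p = 0.0861). Of 4 tested partners of *ADGRV1* in Usher syndrome and the ankle links, limma called 0, with 1 at an unadjusted p below 0.05, and edgeR and DESeq2 called 0. *CIB2*, a calcium-binding protein of the stereocilia, had 0.38 ± 0.10 (adjusted p = 0.0423).

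The remaining lists gave few calls. Limma, edgeR and DESeq2 called 0 of 5 tested alpha kinases (0 at an unadjusted p below 0.05), 0 of 2 tested FAM110 genes (0), 0 of 5 tested ZBED genes (1) and 0 of 2 tested GABA-A receptor subunits (1). Of the 18 other receptor subunits, 8 had no reads in any library and only *GABRD* and *GABRR2* passed the filter, so *GABRE* had few relatives to compare with. *GABRR2* had −0.74 ± 0.23 (limma adjusted p = 0.0835) and *ZBED3* −0.42 ± 0.11 (adjusted p = 0.0414), short of the fold cut-off. Of 15 tested selenoprotein genes, listed for the overlap of *CCDC152* with *SELENOP*, limma called 0 higher and 2 lower, against 5.77% and 2.08% of all tested genes, with a list median of −0.02. edgeR and DESeq2 called 1 lower, *GPX3*. *GPX3*, a secreted glutathione peroxidase, fell by 0.64 ± 0.15 (adjusted p = 0.0323), and *TXNRD2*, the mitochondrial thioredoxin reductase, by 0.51 ± 0.11 (adjusted p = 0.0266). The *GPX3* call was missed without any 1 control (unadjusted p = 0.0101 to 0.0155), and the *TXNRD2* call without control 1 (0.0101) or control 2 (0.0108). Without clone 2 for *GPX3* and without clone 3 for *TXNRD2*, the change fell short of the fold cut-off, at an unadjusted p of 0.00123 and 0.000358.

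Of 20 tested genes for DNA methylation and silencing, machinery that keeps genes off through cell division, limma called 0, with 6 at an unadjusted p below 0.05, and edgeR and DESeq2 called 0. The share of all tested genes at this p is not given here, so nothing is read from the 6. The DNA methyltransferase gene *DNMT3B* differed by −0.39 ± 0.07 (SE, limma adjusted p = 0.0147), the Polycomb gene *EED* by −0.27 ± 0.06 (adjusted p = 0.0256) and *TET1*, which oxidises methylated cytosine, by 0.76 ± 0.23 (adjusted p = 0.0704). For *DNMT3B* the clones differed by −0.43, −0.34 and −0.41. Over the list, the lowest differences in clones 1 to 3 were −0.43, −0.34 and −0.73 and the highest 0.70, 1.08 and 0.49. The 10 genes were chosen for their wide spread, so nothing is read from a comparison with it.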

How the data were processed

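RNA was sequenced from 3 Control replicates and 3 *SAMD1* KO clones with a stranded mRNA kit. The authors aligned the reads with RNA-Star to GenCode 43, and featureCounts, DESeq2 and hg38 are in the submitters' processing notes. They deposited a signal per gene and library, the read count over a DESeq2 size factor (a normalized count). Whole reads were recovered by the step between values (100% whole within 0.1). A second table, with fold changes and p-values of the authors' own comparison, was not used, and 0 sample columns were left unused.

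Genes with a mean of at least 10 were compared on log2(normalized count + 1) with limma 3.58.1 (lmFit, eBayes with trend) in R 4.3.3, with Benjamini-Hochberg adjustment over 12773 genes and two-sided tests. A fold change on this scale understates the change of low genes. Alternatives on the recovered reads were DESeq2 1.42.0 and the quasi-likelihood test of edgeR 4.0.16. Further ones were other pseudocounts, filters and scaling, a replicate block and leaving out each library. The fits were tested on simulated data. Intervals are exact Poisson intervals at 95% for the reads of the clone, with the control mean taken as fixed; they and the floor of 3 reads cover counting error only. Gene positions are from GENCODE 44 on GRCh38 and promoters from RefSeq (GRCh38.p14). Other steps used Python 3.11.15, numpy 2.4.6, pandas 2.3.3 and SciPy 1.17.1.

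The 10 genes and the lists of other genes were chosen with earlier results of these data known. Named besides are up to 3 tested genes of each list with the smallest p, the 2 genes nearest to each of the 10 in pattern, the 5 widest other genes of the range rule, neighbours past 4-fold the same way, and overlapping genes that are protein-coding or microRNA genes. Some genes that this rule selects are not reported here.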

Additional observations from a re-analysis of the deposited data

How the results depend on the processing

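With the clones as single libraries, the ranges rest on low counts and on which clone is present. Of 142 alternative counts, 103 stayed within 1.5 times the main count. Some of these could not move, since the genes past 4-fold in a clone do not depend on the other clones. The number of the 10 genes with a clone range above 4 was 6 with a pseudocount of 10, and 3 to 10 over the fits that left out 1 library (6 without clone 1, 3 without clone 2 and 6 without clone 3). The range rule gave 48 genes with a range above 3, 12 with a control range below 0.5, 8 with a pseudocount of 10, 12 with a mean of at least 50 and 10 to 24 with 1 library left out (12, 10 and 10 without clones 1 to 3). Genes past 4-fold, higher and lower, numbered 34 and 31 in clone 1, 62 and 27 in clone 2 and 43 and 15 in clone 3 with a pseudocount of 10. Without the filter they numbered 106 and 133, 165 and 125, and 128 and 85, and with a mean of at least 50 they numbered 42 and 34, 58 and 27, and 41 and 21. With an adjusted p below 0.01, limma called 357 genes higher and 103 lower in place of 737 and 266. On the recovered reads edgeR called 779 and 247, and DESeq2 830 and 265. Of the listed genes, 5 were called higher without the filter, and the number called lower, 8 as reported, was 5 with a mean of at least 50, 4 with DESeq2, 2 with an adjusted p below 0.01 and 3 to 9 with 1 library left out (3, 3 and 4 without controls 1 to 3). The causes were not tested. Of 90 alternative ranges of the 10 genes 52, and of 30 neighbour medians 7, moved by less than 1 SD of the controls. The range among the clones does not use the controls, so leaving out a control could not move it. Leaving out the middle clone of a gene could not move it either, so the 52 do not measure stability. With 10 neighbours on each side no neighbour median moved by more than 0.153.

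Same-numbered libraries correlated at 0.0391, 0.134 and 0.0318 in their deviations from the group means, and the clones are separate, so the numbers were not taken to pair them. With the replicate number as a block, 725 genes were called higher and 259 lower, and of the listed genes 4 and 5.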
